A study of Homo sapiens with 15 samples.

Results

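Aldehyde dehydrogenase genes were followed by symbol across 5 lines of the ovarian cancer cell line OVCAR4, an established line used as a model of high-grade serous carcinoma. The list held 10 genes of the family, ALDH1A1, ALDH1A2, ALDH1A3, ALDH1B1, ALDH2, ALDH3A1, ALDH3A2, ALDH3B1, ALDH7A1 and ALDH9A1, and 9 of them had a row among the 16604 genes of the deposited expression table. ALDH3A1, an enzyme of aromatic and medium-chain aldehydes, was not analysed here. The platinum-sensitive line (Ovcar4Parental) was compared with a cisplatin-resistant line (Ov4Cis), a carboplatin-resistant line (Ov4Carbo) and a pair of lines each grown from a single cell of Ov4Carbo (Ov4Carbo4 and Ov4Carbo7). Resistance had been selected by rising drug concentrations until the IC50 was 2 to 10 times higher. Each resistant population stands for 1 selection, and each clone line for 1 cell, so the lines are not replicates of a treatment. All lines grew in DMEM with serum, and the labels name no drug in the cultures that gave RNA. Every line had 3 biological replicates (15 samples in all), sequenced as polyA-captured RNA.

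Aldehyde dehydrogenases oxidise aldehydes to carboxylic acids with NAD or NADP as the electron acceptor. The ALDH1A enzymes make retinoic acid from retinaldehyde, the last step before the retinoic acid receptors are engaged, while the mitochondrial enzymes clear acetaldehyde and others act on fatty aldehydes, lysine breakdown products or carnitine precursors. In ovarian cancer, high aldehyde dehydrogenase activity, often attributed to ALDH1A1, is used as a mark of cells with stem-like behaviour.

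Values are log2 RPKM, that is reads per unit of transcript length and of library size on a log2 scale after the authors' normalization, so levels can be compared between genes per unit of length. A gene was called changed when limma's test, adjusted over all 16604 genes, gave a p under 0.05 and the difference was at least 1 on the log2 scale. All samples had a median of 2.77 log2 RPKM, and between 13643 and 13712 genes lay above 0. Read totals are not given in the sources used here, and the number of reads behind a value is not known. Of the 15 serous markers listed, 14 had a line mean of 1 or more in the parental line and in Ov4Carbo. The count was 12 in Ov4Carbo4, 13 in Ov4Carbo7 and 8 in Ov4Cis, where the other 7 lay under 0. PAX8 and SOX17, factors of Müllerian epithelium, were high in every line, with line means from 5.85 to 6.74 for PAX8 and from 6.65 to 7.76 for SOX17, while WT1, another serous marker, lay under 0 in every line. Ov4Cis had low epithelial markers, with KRT7 at -0.57 against 8.28 in the parental line, and the part of this shift in the results for Ov4Cis was not tested. Of the markers of other cell types, 5 of 10 for fibroblasts, 2 of 10 for immune cells and 4 of 8 for endothelium were in the table. No immune marker had a line mean of 1 or more. Of the fibroblast list, COL1A1 had line means from 2.26 to 3.63 and COL1A2 was at 1.39 in the parental line and under 0 in the others, and CDH5 and ERG, of the endothelial list, had line means from 2.15 to 5.13 and from 2.47 to 3.28. Replicate 1 of Ov4Carbo stood apart from its fellows. Its values differed from those of Ov4Carbo7 by 0.89 (root mean square over genes, mean over 3 replicates), against 1.13 and 1.07 for replicates 2 and 3. It was not nearer to the other clone, Ov4Carbo4, at 1.07 against 1.06 and 1.01. The sample titles carry 2 series of numbers, with that replicate and all clone samples in one and the rest in the other. The labels do not say what the series mark, and Ov4Carbo alone has samples in both, so for the clones against the parental or Ov4Cis line the series and the line can be told apart only through Ov4Carbo. Of that line, only replicate 1 lies in the series of the clones. A fit with a title series term thus rests on that 1 sample where a clone is compared with Ov4Carbo, Ov4Cis or the parental line.

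The regions just before the start sites of the ALDH1A genes are shown first because these 3 genes had the widest differences between lines of all the members. Each line holds the 250 bases before the RefSeq start (GRCh38.p14), 5′ to 3′ on the gene's strand, with CCAAT and GC boxes (GGGCGG on either strand) in capitals.
ALDH1A1: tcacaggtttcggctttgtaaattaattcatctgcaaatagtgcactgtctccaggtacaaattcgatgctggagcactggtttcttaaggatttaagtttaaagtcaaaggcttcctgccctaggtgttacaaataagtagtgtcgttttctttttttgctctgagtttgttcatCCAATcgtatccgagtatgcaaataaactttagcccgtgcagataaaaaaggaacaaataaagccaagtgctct
ALDH1A2: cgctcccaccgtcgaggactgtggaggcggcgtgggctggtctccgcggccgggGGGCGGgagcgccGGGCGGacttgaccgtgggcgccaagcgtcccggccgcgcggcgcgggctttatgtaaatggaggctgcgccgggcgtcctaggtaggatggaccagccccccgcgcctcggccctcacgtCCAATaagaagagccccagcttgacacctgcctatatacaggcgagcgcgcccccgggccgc
ALDH1A3: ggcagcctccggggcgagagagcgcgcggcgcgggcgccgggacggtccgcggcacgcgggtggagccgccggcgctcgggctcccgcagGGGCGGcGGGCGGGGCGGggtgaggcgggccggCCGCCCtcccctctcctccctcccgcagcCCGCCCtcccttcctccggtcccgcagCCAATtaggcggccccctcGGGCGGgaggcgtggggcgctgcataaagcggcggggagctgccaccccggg
They lie at chr9:72953054-72953303 on the minus strand, chr15:58065712-58065961 on the minus strand and chr15:100879581-100879830 on the plus strand. The ALDH1A1 stretch had 38.4% G and C with 6 CpG, against medians of 58% and 11 over 35116 promoter windows of the same length. ALDH1A2 had 72.8% with 33 CpG and ALDH1A3 had 82.4% with 38 CpG. A second ALDH1A2 start in RefSeq, at another position on chromosome 15, had 41.6% G and C. All 3 printed stretches held a CCAAT box, at 74 to 70, 62 to 58 and 71 to 67 bases before the start, a motif present in 32.0% of all windows. ALDH1A2 held 2 GC boxes and ALDH1A3 held 6, of which a pair overlap, and ALDH1A1 held none, where 42.6% of windows hold at least 1. ALDH1A1 also held AGATAA, the GATA site among the motifs searched, found in 9.17% of windows, at 34 to 29 bases before its start. Also searched, on both strands, and not found in these stretches were the TATA box, written TATAAA (in 10.7% of all windows), the AP-1 motif, written TGANTCA (6.57%), the core of the antioxidant response element, written TGANNNNGC (35.2%), and the half-site of nuclear receptors such as the retinoic acid receptors, written AGGTCA (12.1%). A match to letters is no evidence of binding. Of the 10 listed genes, 8 had a window in the table, 11 windows in all, and ALDH2 and ALDH3A1 had none.

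Of the 9 genes measured, 2 were called in Ov4Cis against the parental line, where 15.9% of all genes were called. In Ov4Carbo 4 were called (12.7% of all genes), in the clone Ov4Carbo4 3 (15.1%) and in the clone Ov4Carbo7 2 (17.0%). These comparisons share the parental samples. The members that changed did not move as one group. In Ov4Cis 1 gene rose, ALDH2, and 1 fell, ALDH1B1, where 8.46% of all genes rose and 7.41% fell. In Ov4Carbo ALDH1A1 and ALDH2 rose and ALDH1A3 and ALDH1B1 fell, beside 5.76% and 6.93% of all genes. In Ov4Carbo4 none of the 9 rose (7.43% of all genes did), and ALDH1A2, ALDH1A3 and ALDH3B1 fell (7.70%). In Ov4Carbo7 ALDH1A1 and ALDH1A3 rose (9.26%) and none fell (7.75%). The median log2 difference of the 9 genes was 0.29, -0.07, -0.47 and 0.34, beside 0.04, 0.03, 0.07 and 0.02 over all genes. In the F-test for any difference among the 5 lines all 9 passed at an adjusted p under 0.05, where 76.9% of all genes did. The weakest was ALDH3A2 (limma adjusted p = 0.0463).

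**Figure D1:**
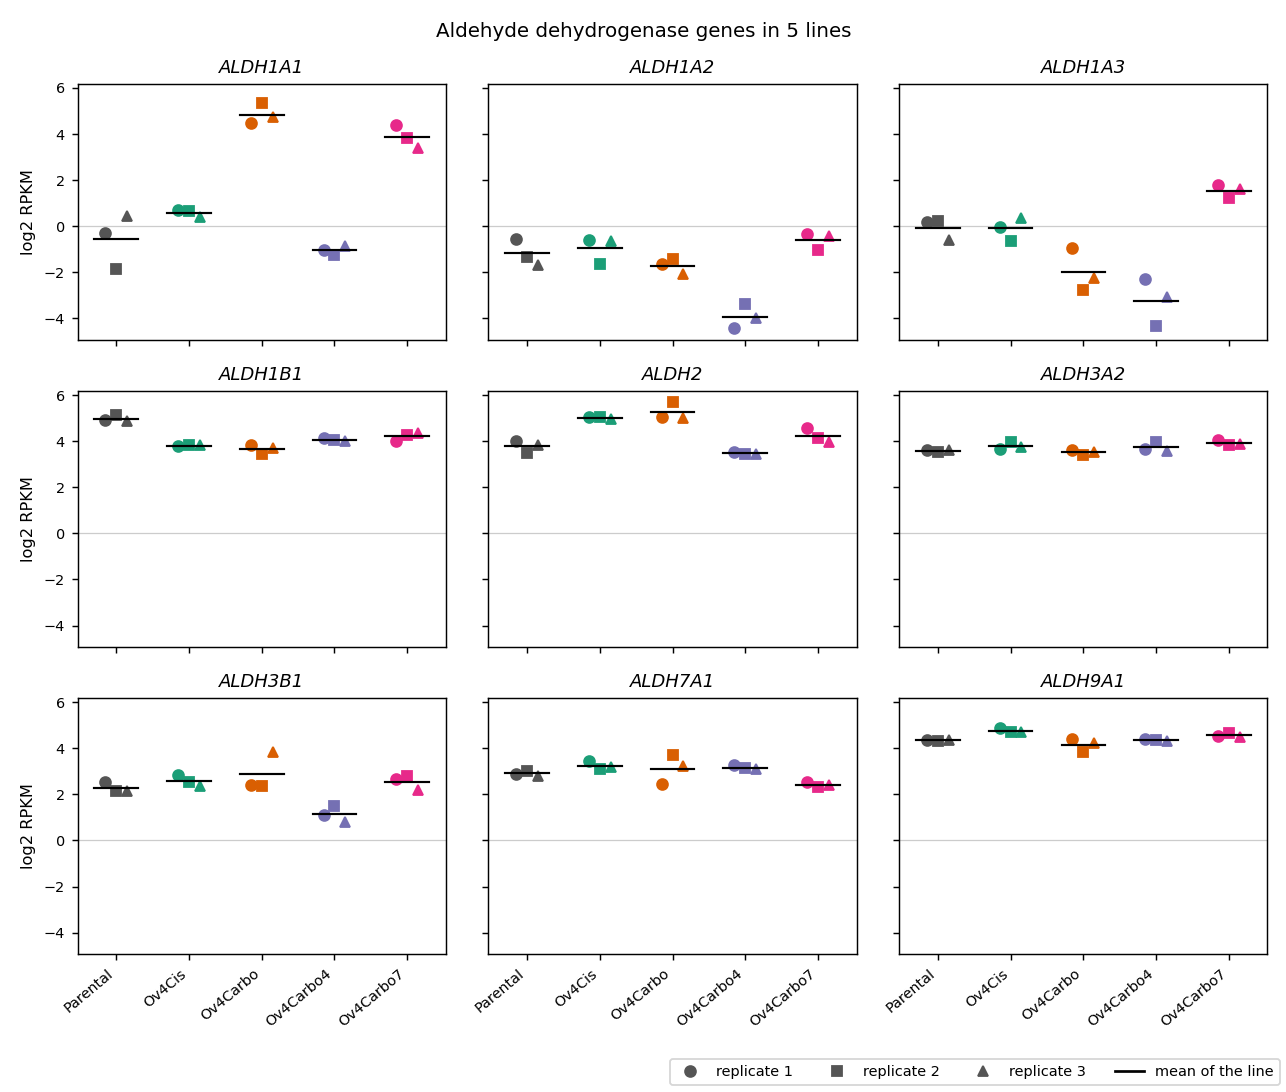
Level of each aldehyde dehydrogenase gene in every sample (vertical axis, log2 RPKM) by line (horizontal axis); marker shapes stand for replicates 1 to 3 and black bars for line means. ALDH1A1 lies between 3.41 and 5.33 in Ov4Carbo and Ov4Carbo7 and at 0.70 or below in the other lines, whereas ALDH3A2 and ALDH9A1 stay within narrow bands.

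ALDH1A1, a cytosolic retinaldehyde dehydrogenase encoded on chromosome 9 (ENSG00000165092), rose in the carboplatin-selected population and in one of its clones. Its level in the 3 parental samples was -0.31, -1.86 and 0.44 log2 RPKM. In Ov4Carbo it was 4.47, 5.33 and 4.72, and in Ov4Carbo7 it was 4.40, 3.81 and 3.41. No value of these lines overlapped any parental value. Ov4Carbo4, the other clone, had -1.03, -1.26 and -0.84, within the parental range, and Ov4Cis had 0.70, 0.67 and 0.39, overlapping its upper end. The parental replicates were widely spread at this low level (SD 1.17), more than those of any other line.

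The rise of ALDH1A1 was 5.41 ± 0.46 (log2 difference ± SE, n = 3 per line, 42.6-fold, limma adjusted p = 4.11e-06) in Ov4Carbo. It was the 20th largest rise among the 16604 genes of that comparison. In Ov4Carbo7 the rise was 4.45 ± 0.46 (21.8-fold, limma adjusted p = 9.87e-06), the 114th largest. On a scale of log2(RPKM + 1) the ALDH1A1 rises were 4.08 in Ov4Carbo and 3.16 in Ov4Carbo7, since the parental mean lies under 1 RPKM (0.67). Within the title series shared with the parental samples, that is without replicate 1 of Ov4Carbo, the ALDH1A1 difference was 5.60. A term for the title series gave 5.0 for Ov4Carbo7. The samples are bulk RNA, so more cells with ALDH1A1 and more RNA per cell cannot be told apart.

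Between the clones, ALDH1A1 was 4.91 ± 0.46 higher in Ov4Carbo7 than in Ov4Carbo4 (limma adjusted p = 3.50e-06), a comparison made wholly within one title series. Ov4Carbo4 was 5.88 ± 0.46 below its source population. For Ov4Carbo7 against Ov4Carbo the ALDH1A1 difference of -0.97 did not pass the test (limma adjusted p = 0.118), although the values do not overlap. Ov4Cis, at 1.16 ± 0.46 above the parental line, also missed the threshold (limma adjusted p = 0.0657). Without parental replicate 3 it passed, at 1.67 (adjusted p = 0.00901), and with all samples it passed where the variance was modelled with a trend (adjusted p = 0.0472). In the same way the ALDH1A1 difference of -0.47 in Ov4Carbo4 became -1.11 and passed (adjusted p = 0.0211) without parental replicate 2, and was 0.04 without replicate 3. The order of the lines was Ov4Carbo, Ov4Carbo7, Ov4Cis, parental and Ov4Carbo4, and among neighbours the step from Ov4Carbo7 to Ov4Cis passed the test. ALDH1A1 shared none of its 50-base transcript windows with another gene in the GENCODE annotation.

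ALDH1A2, the retinaldehyde dehydrogenase of many embryonic tissues, encoded on chromosome 15 (ENSG00000128918), was low in all lines and lowest in Ov4Carbo4. The parental samples had -0.54, -1.33 and -1.68 log2 RPKM and the Ov4Carbo4 samples -4.42, -3.38 and -3.99, with no overlap. The difference was -2.75 ± 0.37 (limma adjusted p = 9.58e-05). On a scale of log2(RPKM + 1) it was -0.45, since both levels lie under 1 RPKM. Ov4Cis (-0.60, -1.62 and -0.63), Ov4Carbo (-1.64, -1.42 and -2.08) and Ov4Carbo7 (-0.32, -1.04 and -0.43) overlapped the parental range, and none of the 3 was called against it. Ov4Carbo4 was lower than each of the other 4 lines, by 2.22 to 3.33 for the other resistant lines. Ov4Carbo7 was 1.11 above Ov4Carbo (limma adjusted p = 0.0325). This ALDH1A2 call was lost without Ov4Carbo replicate 3 (0.93), Ov4Carbo7 replicate 1 (0.98) or Ov4Carbo7 replicate 3 (adjusted p = 0.097). It was also lost with the title series term (1.04), with quantile normalization (0.94) and at an adjusted p under 0.01. On log2(RPKM + 0.1) and log2(RPKM + 1) the difference was 0.91 and 0.35, inside the fold limit.

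ALDH1A3, the last of the retinaldehyde dehydrogenases, also on chromosome 15 (ENSG00000184254), split the carboplatin-selected lines. It rose in Ov4Carbo7 and fell in Ov4Carbo and Ov4Carbo4. The parental samples had 0.19, 0.21 and -0.61 log2 RPKM, and Ov4Carbo7 had 1.79, 1.21 and 1.63. Ov4Carbo had -0.94, -2.79 and -2.23, and Ov4Carbo4 had -2.28, -4.35 and -3.09. Neither range overlapped the parental one, and the Ov4Cis values of -0.03, -0.62 and 0.36 did.

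The fall of ALDH1A3 in Ov4Carbo4 was -3.17 ± 0.53 (limma adjusted p = 0.000479), and with the title series term it was -4.74. The fall in Ov4Carbo was -1.92 ± 0.53 (limma adjusted p = 0.0148). It missed the threshold without parental replicate 2 (adjusted p = 0.0535) or Ov4Carbo replicate 2 (-1.52, adjusted p = 0.0636) and when only these 2 lines were fitted (adjusted p = 0.0515), and was -2.44 without Ov4Carbo replicate 1. The rise in Ov4Carbo7 was 1.61 ± 0.53 (limma adjusted p = 0.0266), and rested on few samples. It was lost without parental replicate 3 (1.34), Ov4Carbo7 replicate 1 (1.49) or Ov4Carbo7 replicate 3 (1.57), and the title series term reduced it to 0.05 (adjusted p = 0.970). On a scale of log2(RPKM + 1) the ALDH1A3 differences from the parental line were -0.81 in Ov4Carbo4, -0.62 in Ov4Carbo and 0.99 in Ov4Carbo7. All of these are inside the fold limit. Between the clones, inside one title series, ALDH1A3 was 4.78 ± 0.53 higher in Ov4Carbo7 (limma adjusted p = 1.30e-05). An antisense gene, AC015712.2, overlaps ALDH1A3 and shares 24.1% of its 50-base transcript windows. The strand used in counting is not given in the sources used here, so their reads may not be separable.

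**Figure D2:**
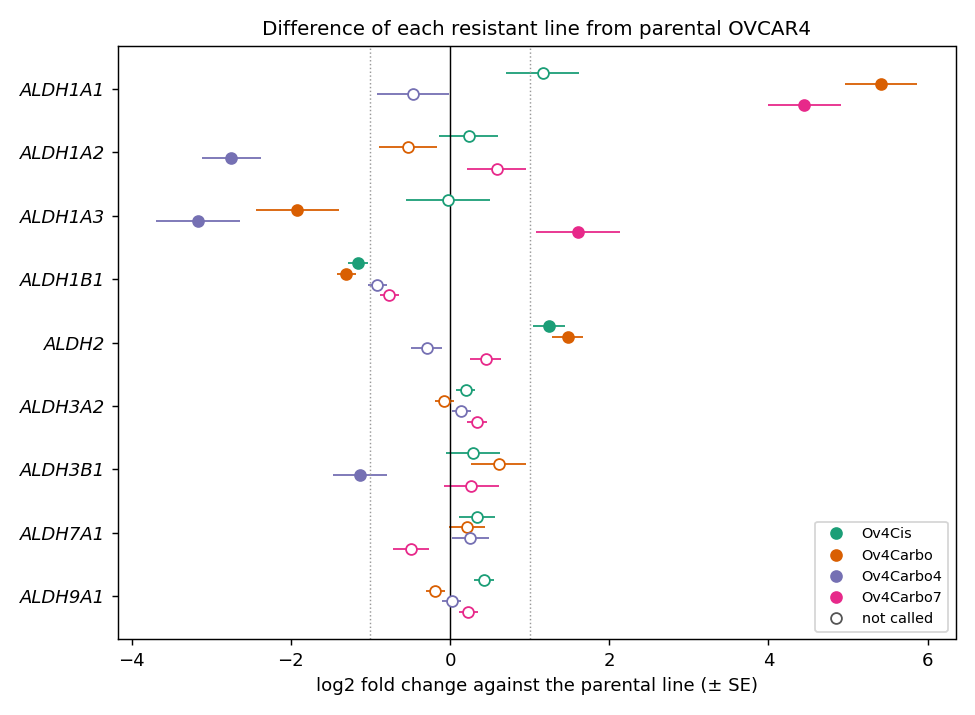
Difference of each resistant line from the parental line (horizontal axis, log2 difference of line means ± SE, n = 3 per line) for each measured aldehyde dehydrogenase gene; open points were not called and dotted lines mark differences of 1 in either direction. ALDH1A1 reaches 5.41 in Ov4Carbo and 4.45 in Ov4Carbo7, and ALDH1B1 lies below 0 in all 4 lines.

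The mitochondrial enzymes ALDH1B1 and ALDH2 moved in opposite directions in Ov4Cis and Ov4Carbo. ALDH1B1, which oxidises acetaldehyde and also retinaldehyde (chromosome 9, ENSG00000137124), had 4.91, 5.12 and 4.87 log2 RPKM in the parental samples. Every resistant sample was lower, from 3.46 to 4.34. Its difference was -1.16 ± 0.12 in Ov4Cis (limma adjusted p = 1.09e-05) and -1.30 ± 0.12 in Ov4Carbo (limma adjusted p = 9.42e-06), and both were called. In the clones ALDH1B1 differed by -0.91 (limma adjusted p = 8.87e-05) and -0.76 (limma adjusted p = 0.000305) and stayed inside the fold limit. With the title series term these became -1.19 and -1.04, past the limit. The parental line thus stood at the top of the order for ALDH1B1, and the steps between neighbouring resistant lines did not pass the test. Resistant lines further apart in the order did differ, inside the fold limit. Ov4Carbo7 was 0.54 above Ov4Carbo (limma adjusted p = 0.00444) and Ov4Carbo4 was 0.39 above it (limma adjusted p = 0.0225). Ov4Cis against Ov4Carbo7 gave -0.40 (limma adjusted p = 0.0210).

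ALDH2, the main enzyme of acetaldehyde clearance (chromosome 12, ENSG00000111275), had 3.99, 3.48 and 3.85 log2 RPKM in the parental samples. Ov4Cis had 5.06, 5.04 and 4.94, and Ov4Carbo had 5.07, 5.68 and 5.0. Both ranges lay wholly above the parental one. The rises were 1.24 ± 0.20 in Ov4Cis (2.37-fold, limma adjusted p = 0.000315) and 1.48 ± 0.20 in Ov4Carbo (2.78-fold, limma adjusted p = 0.000141). The clones did not keep the level of Ov4Carbo. ALDH2 was 3.52, 3.46 and 3.46 in Ov4Carbo4, which was 1.77 below Ov4Carbo (limma adjusted p = 3.38e-05), and 4.57, 4.13 and 3.95 in Ov4Carbo7, which was 1.03 below it (limma adjusted p = 0.00163). The latter difference fell under the fold limit without Ov4Carbo replicate 2 (-0.81), Ov4Carbo7 replicate 2 (-0.98) or Ov4Carbo7 replicate 3 (-0.90), and with the title series term it was -0.85 (adjusted p = 0.0552). ALDH2 had 0.45 and -0.29 against the parental line in Ov4Carbo7 and Ov4Carbo4, neither called. ALDH2 shared 9.45% of its transcript windows with other genes, mostly an overlapping one.

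ALDH3B1, a membrane-bound enzyme of lipid-derived aldehydes (chromosome 11, ENSG00000006534), was lower in Ov4Carbo4. The parental samples had 2.54, 2.14 and 2.13 log2 RPKM and the Ov4Carbo4 samples 1.10, 1.51 and 0.80, with no overlap. The difference of -1.13 ± 0.34 (limma adjusted p = 0.0196) missed the threshold without parental replicate 1 (adjusted p = 0.0686), Ov4Carbo4 replicate 1 (adjusted p = 0.0517) or Ov4Carbo4 replicate 3 (adjusted p = 0.078). With the title series term it was -0.44 (adjusted p = 0.620). Within the clone samples alone, ALDH3B1 was 1.40 ± 0.34 higher in Ov4Carbo7, at 2.66, 2.78 and 2.18 (limma adjusted p = 0.00440). Ov4Cis had 2.82, 2.52 and 2.34, and Ov4Carbo had 2.42, 2.37 and 3.85, the last of which lay far above its fellows. ALDH3A2, the microsomal fatty aldehyde dehydrogenase (chromosome 17, ENSG00000072210), was called in none of the 10 comparisons between lines. Its 15 values lay between 3.38 and 4.03, and its largest difference from the parental line was 0.34 in Ov4Carbo7 (limma adjusted p = 0.0384), well inside the fold limit.

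ALDH7A1, which acts in lysine breakdown (chromosome 5, ENSG00000164904), was not called in any comparison either. It was lowest in Ov4Carbo7, at 2.56, 2.30 and 2.38 log2 RPKM against 2.89, 3.01 and 2.81 in the parental samples, a difference of -0.49 (limma adjusted p = 0.104). The Ov4Carbo replicates of ALDH7A1 were 2.46, 3.69 and 3.21, replicate 1 being in the range of Ov4Carbo7. Without it, Ov4Carbo7 was 1.03 below Ov4Carbo and passed (adjusted p = 0.000265), and with the title series term Ov4Carbo4 was 1.24 above the parental line (adjusted p = 0.00327), against 0.25 without it. Ov4Cis had 3.43, 3.12 and 3.19, and Ov4Carbo4 had 3.25, 3.13 and 3.09. ALDH9A1, which makes gamma-butyrobetaine, the precursor of carnitine (chromosome 1, ENSG00000143149), had 4.35, 4.32 and 4.34 in the parental samples. Ov4Cis, with 4.86, 4.71 and 4.72, was 0.42 ± 0.12 higher (limma adjusted p = 0.0157), with no overlap but inside the fold limit. The other lines ranged from 3.83 to 4.65.

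Between resistant lines, 4 of the 9 genes were called for Ov4Carbo4 against Ov4Carbo (14.2% of all genes), all lower in the clone (6.64%), and 3 for Ov4Carbo7 against Ov4Carbo (13.3%). For the clones against each other 4 of 9 were called, all higher in Ov4Carbo7, where 20.9% of all genes were called and 11.1% were higher. These 4 were ALDH1A1, ALDH1A2, ALDH1A3 and ALDH3B1. For Ov4Cis the counts were 2 of 9 against Ov4Carbo (13.8% of all genes), 5 against Ov4Carbo4 (16.8%), all higher in Ov4Cis (9.12%), and 2 against Ov4Carbo7 (14.7%). The 5 genes higher in Ov4Cis than in Ov4Carbo4 were the 3 ALDH1A genes, ALDH2 and ALDH3B1. The range of line means, that is the highest minus the lowest, was 5.88 for ALDH1A1, 4.78 for ALDH1A3 and 3.33 for ALDH1A2. It was 0.41 for ALDH3A2, 0.61 for ALDH9A1 and 0.83 for ALDH7A1, against a median of 0.86 over all genes.

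Among the 9 members, levels per unit of length placed ALDH1B1 highest in the parental line (mean 4.97 log2 RPKM), ahead of ALDH9A1 (4.34), ALDH2 (3.77) and ALDH3A2 (3.59). In Ov4Carbo the highest of the 9 were ALDH2 (5.25) and ALDH1A1 (4.84), and ALDH1A1 was at 3.87 in Ov4Carbo7 against -0.58 in the parental line. ALDH1A2 stayed under 0 in every line. Over the 15 samples, which share the 5 lines and are not independent, Pearson's r between members was highest for ALDH1A2 with ALDH1A3 (0.81) and lowest for ALDH1B1 with ALDH2 (-0.69), and it was 0.67 for ALDH1A1 with ALDH2.

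Of 13272 genes ranked by their correlation over the 15 samples, those most like ALDH1A1 were RAB40B (r = 0.964), ST3GAL4 (0.963) and SPSB2 (0.959). ST3GAL4 is a sialyltransferase, and RAB40B and SPSB2 carry SOCS boxes, the domain through which such proteins join ubiquitin ligases. The genes most like ALDH1A2 were NNMT (r = 0.948), the nicotinamide N-methyltransferase, MANF (0.947), a protein of the endoplasmic reticulum, and BORCS8 (0.945), a subunit of a lysosome-positioning complex. Those most like ALDH1A3 were GATA6-AS1 (r = 0.972), SBDS (0.966), a ribosome maturation factor, and GATA6 (0.961), a transcription factor. GATA6-AS1 lies antisense to GATA6, and reads of the pair may not be separable where strand was not used. These correlations rest on 5 lines and are given as a description.

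Among a further 9 aldehyde dehydrogenase genes, 8 were in the table and ALDH8A1 was not analysed here. Against the parental line 4 of 8 were called for Ov4Cis (2 higher, 2 lower), 2 for Ov4Carbo (1 higher, 1 lower), 2 for the clone Ov4Carbo4 (both lower) and 1 for Ov4Carbo7 (lower), where 15.9%, 12.7%, 15.1% and 17.0% of all genes were called. In Ov4Carbo7, 1 of 8 is no more than that share. ALDH6A1, the mitochondrial methylmalonate-semialdehyde enzyme of valine breakdown, rose in Ov4Cis, where it had 5.87, 5.88 and 5.95 log2 RPKM against 4.21, 3.80 and 3.96. That difference was 1.91 ± 0.14 (limma adjusted p = 5.19e-07), and ALDH6A1 was not called in the other resistant lines. ALDH1L2, a mitochondrial enzyme of folate metabolism, fell in Ov4Carbo4 to 1.30, 2.10 and 0.92 from 4.85, 4.03 and 3.13, a difference of -2.56 ± 0.66 (limma adjusted p = 0.00847). ALDH1L2 also fell in Ov4Cis (-2.03, limma adjusted p = 0.0293). ALDH3B2, a close relative of ALDH3B1 singled out after its values were seen, was called lower in all 4 resistant lines, by -3.26 to -5.29, from a parental level of -0.49, -1.73 and -1.72. Its highest resistant sample was -4.29. The parental line had its highest line mean, at -1.31, so the ALDH3B2 fall lies between levels under 1 RPKM.

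**Figure D3:**
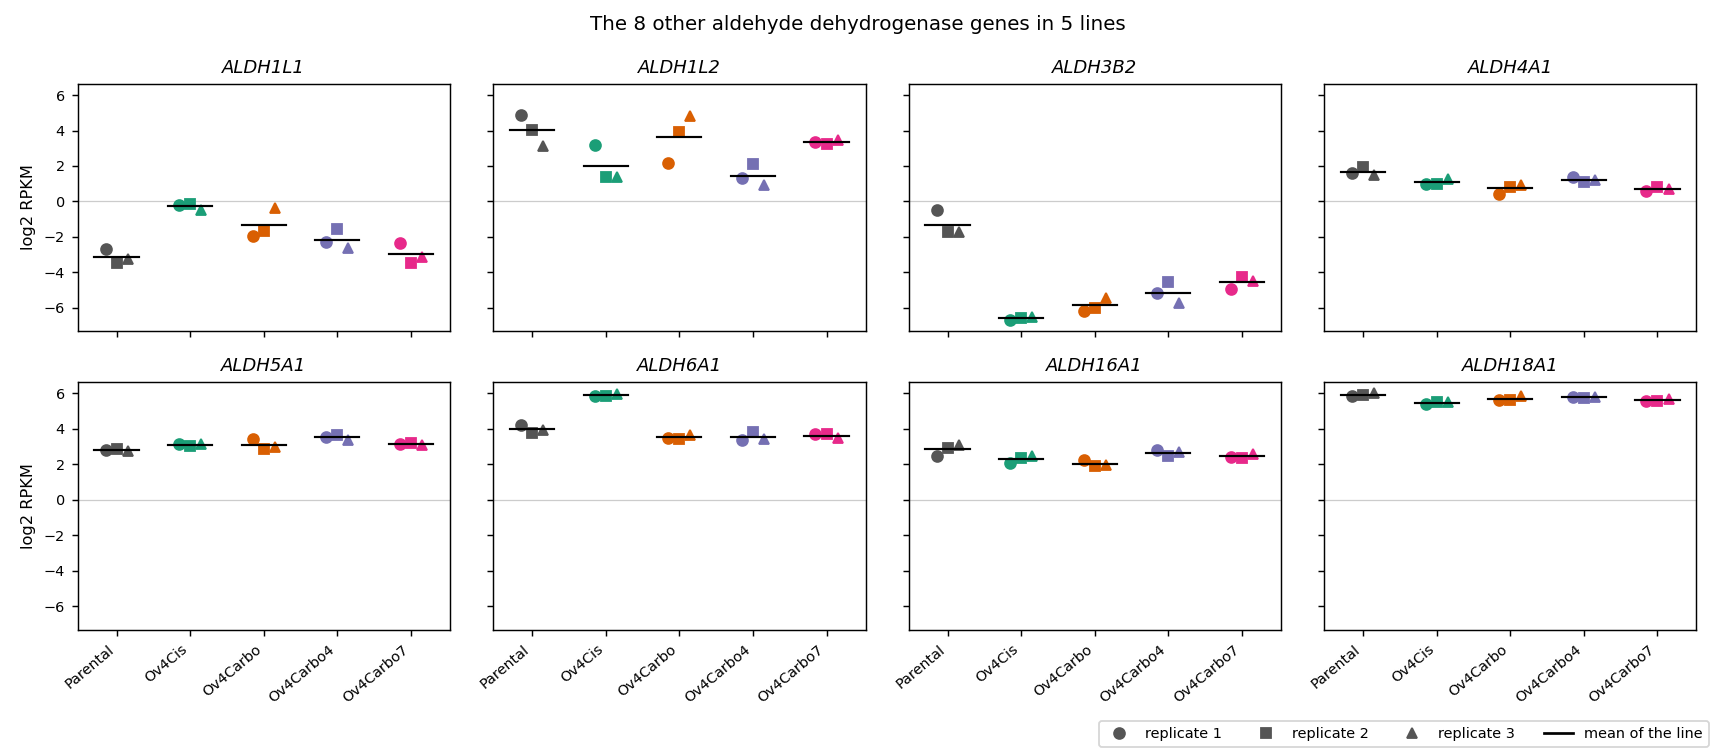
Level of the 8 other aldehyde dehydrogenase genes in every sample (vertical axis, log2 RPKM) by line (horizontal axis); marker shapes stand for replicates 1 to 3 and black bars for line means. ALDH6A1 stands near 5.90 in Ov4Cis alone, and the parental samples lie highest for ALDH3B2.

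Genes that supply, carry, degrade or sense retinoids were a list of 33, of which 23 were in the table. Against the parental line 10 of 23 were called in Ov4Cis (2 higher, 8 lower), 9 in Ov4Carbo (3 higher, 6 lower), 8 in Ov4Carbo4 (3 higher, 5 lower) and 10 in Ov4Carbo7 (2 higher, 8 lower). The called shares of all genes were 15.9%, 12.7%, 15.1% and 17.0%. The median differences of the list were -0.22, -0.10, -0.01 and -0.37, beside 0.04, 0.03, 0.07 and 0.02 over all genes. On the supply side, BCO1, which cleaves beta-carotene to retinaldehyde, rose in all 4 resistant lines. BCO1 had -1.56, -1.52 and -1.26 log2 RPKM in the parental samples and 2.01, 2.25 and 2.12 in Ov4Cis, a difference of 3.57 ± 0.18 (limma adjusted p = 2.44e-08). It rose by 3.27 in Ov4Carbo, 1.88 in Ov4Carbo4 and 3.51 in Ov4Carbo7. BCO1 shared 12.3% of its transcript windows with an annotated neighbour. STRA6, the cell-surface retinol transporter, rose in Ov4Carbo (3.07 ± 0.47, limma adjusted p = 0.000400) and in Ov4Carbo4 (2.27) and had a difference of -1.15 in Ov4Carbo7, not called.

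The carriers of retinoids inside the cell were lower in several lines. CRABP1, a retinoic acid carrier, fell in Ov4Carbo7 to -5.18, -7.00 and -5.14 log2 RPKM from 0.70, -0.12 and 0.02, a difference of -5.97 ± 0.81 (limma adjusted p = 8.67e-05). In Ov4Carbo the CRABP1 values were -4.50, -0.54 and -1.46, replicate 1 again nearest to Ov4Carbo7. In the annotation, 37.9% of the CRABP1 transcript windows also occur in another gene. FABP5, a fatty acid carrier that also binds retinoic acid, fell in Ov4Cis (-2.26), Ov4Carbo (-3.77) and Ov4Carbo4 (-4.98 ± 0.55, limma adjusted p = 2.16e-05), and its difference of -1.39 in Ov4Carbo7 was not called. FABP5 levels were low, with a highest line mean of 0.26 log2 RPKM, and 18.4% of its transcript windows also occur in other genes. RARRES2, which encodes the chemoattractant chemerin and is known to be induced by retinoids, fell in Ov4Cis to -4.12, -4.71 and -4.35 from 1.96, 1.90 and 1.10. The RARRES2 difference there was -6.04 ± 0.33 (limma adjusted p = 4.64e-08), with -2.63 in Ov4Carbo4, -2.18 in Ov4Carbo7 and 0.24, not called, in Ov4Carbo.

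**Figure D4:**
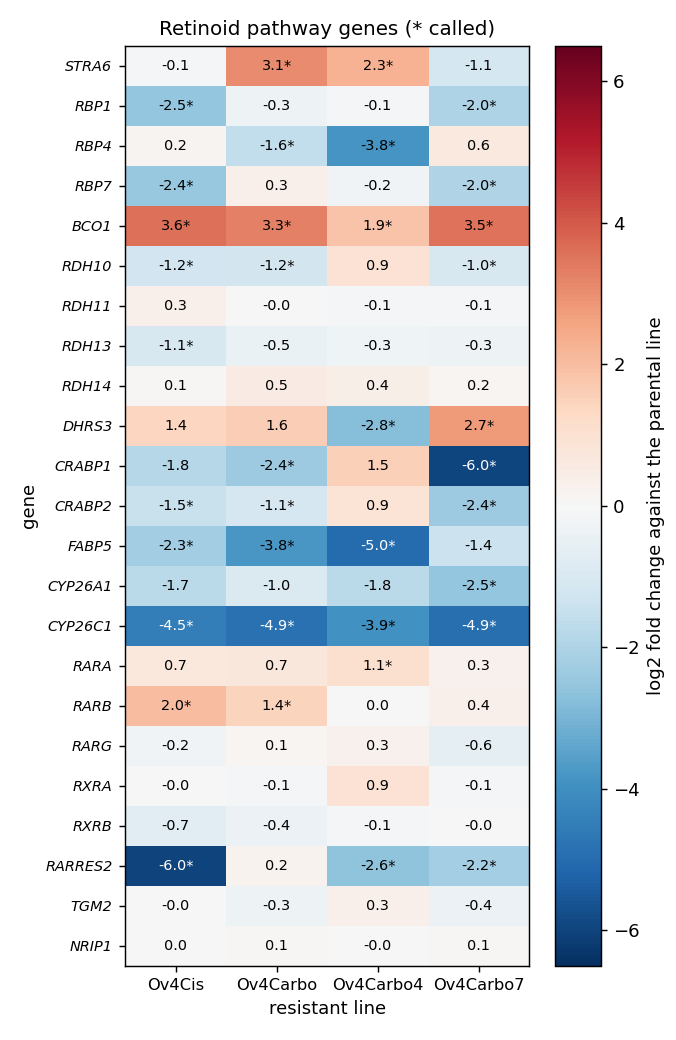
Log2 difference of each resistant line from the parental line (colour) for 23 retinoid genes (rows) in the 4 resistant lines (columns); asterisks mark calls. BCO1 is called higher in all 4 lines, and RARRES2 has the lowest value in Ov4Cis, at -6.04.

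Other enzymes that make or remove aldehydes and alcohols were a list of 31, with 22 in the table. Called against the parental line were 4 in Ov4Cis (all higher), 6 in Ov4Carbo (5 higher, 1 lower), 10 in Ov4Carbo4 (3 higher, 7 lower) and 9 in Ov4Carbo7 (8 higher, 1 lower), beside 15.9%, 12.7%, 15.1% and 17.0% of all genes. The 4 of 22 in Ov4Cis are near that share. AOX1, aldehyde oxidase, rose in Ov4Carbo7 to 1.69, 1.57 and 1.86 log2 RPKM from -2.70, -2.49 and -4.65, a difference of 4.99 ± 0.43 (limma adjusted p = 2.76e-06). It also rose in Ov4Cis (4.42) and Ov4Carbo (2.93), and in Ov4Carbo4 the AOX1 difference of 0.70 was not called. AOC1, the diamine oxidase, which releases aldehydes from diamines, rose in Ov4Carbo (5.24 ± 0.49, limma adjusted p = 1.03e-05) and in Ov4Carbo7 (1.76). AOC1 levels were low, with a highest line mean of 0.61 log2 RPKM, in Ov4Carbo, and the lowest in the parental line. MAOB, a mitochondrial monoamine oxidase, rose in Ov4Cis to 2.66, 3.01 and 2.96 from -2.83, -1.75 and -0.49 and fell by 1.48 in Ov4Carbo4. AKR1C3, an aldo-keto reductase, rose by 3.52 ± 0.29 in Ov4Cis (limma adjusted p = 1.27e-06) and fell by 2.73 in Ov4Carbo4. AKR1C1, a near copy of AKR1C2 that shares 28.3% of its transcript windows with it, had a difference of 3.43 in Ov4Carbo7 and 2.85 in Ov4Carbo, values that its copy may share. AKR1C1 levels were also low, with a highest line mean of 0.09 log2 RPKM, in Ov4Carbo7.

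Markers used for stem-like cells, among which ALDH1A1 is often counted, were a list of 16, of which 13 were in the table. Against the parental line 5 were called in Ov4Cis (3 higher, 2 lower), 4 in Ov4Carbo (all lower), 7 in Ov4Carbo4 (4 higher, 3 lower) and 7 in Ov4Carbo7 (4 higher, 3 lower), beside called shares of 15.9%, 12.7%, 15.1% and 17.0% over all genes. PROM1, the surface protein CD133, fell in all 4 resistant lines. It had 4.70, 5.10 and 5.03 log2 RPKM in the parental samples, and no resistant sample exceeded 0.95. The PROM1 difference was -4.96 ± 0.27 in Ov4Carbo and -4.17 ± 0.27 in Ov4Carbo7, the lines in which ALDH1A1 rose, and -4.16 and -5.64 in Ov4Cis and Ov4Carbo4. CD44, a hyaluronan receptor, rose in Ov4Cis (1.23) and Ov4Carbo7 (1.09, limma adjusted p = 0.0487) and fell in Ov4Carbo (-1.39) and Ov4Carbo4 (-2.30). NES, an intermediate filament gene, fell in Ov4Carbo (-1.03) and Ov4Carbo7 (-2.45) and rose in Ov4Carbo4 (1.86). SOX2, a pluripotency factor, fell in Ov4Carbo (-4.96) and rose in Ov4Carbo4 (1.63), and EPCAM, an epithelial adhesion protein, fell in Ov4Cis (-4.81) and Ov4Carbo7 (-2.97). SOX2 levels were low, with a highest line mean of 0.51 log2 RPKM, in Ov4Carbo4.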

How the data were processed

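The deposited table holds log2 RPKM per gene and sample, normalized with the cqn method per the deposited file's name; the authors' threshold in that name is not explained in the sources used here. Per the submitters' processing notes, BWA 0.7.15-r1140 and HTSeq were used with hg19 (GRCh37), with no role given, and the strand setting is not given in the sources used here. Read totals are unknown, and no p-value was taken from the authors.

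From these values, limma 3.58.1 in R 4.3.3 (lmFit, eBayes, two-sided, no added pseudocount or filter) was fitted to all 16604 genes and 15 samples with 1 coefficient per line, giving 10 comparisons and an F-test. P-values were adjusted by Benjamini-Hochberg over all genes within each comparison. A call needed an adjusted p under 0.05 and a log2 difference of at least 1. The script was tested on simulated data. The replicates are said to be biological, and no pair of replicates within a line held identical values.

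The members and the gene lists were chosen with earlier results of these data known. All listed members are named. For members with a range of line means of at least 2, the 3 genes with the highest Pearson r over samples are named, among genes with a symbol and a line mean of at least 1. Of each other list, up to 5 genes are named, those with the largest called change from the parental line and a mean of at least 0 in either line compared.

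The replicate numbers are not said to pair samples. The deviations of same-numbered samples from their line means correlated above 0.1 in every pair for 1 of 10 comparisons, Ov4Cis with Ov4Carbo7 (r = 0.257, 0.141 and 0.233). Blocking on the number changed no call there.

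Transcript windows of 50 bases and chromosomes come from a GENCODE annotation of GRCh38, and promoters from RefSeq (GRCh38.p14); the files carry no coordinates. Alternatives tried were a variance trend, quantile normalization, median centring, a filter on the mean, pseudocounts of 1 and 0.1 on RPKM, fits of only the lines compared, the replicate block, a title series term, other thresholds, and leaving out each replicate.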

Additional observations from a re-analysis of the deposited data

Results flagged for a closer look

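Direct tests between resistant lines gave 20 called differences among the members, and each is a difference between 2 lines' changes from the same parental samples. ALDH1A1 differed by -5.88 for Ov4Carbo4 against Ov4Carbo, 4.91 for Ov4Carbo7 against Ov4Carbo4, -4.25 for Ov4Cis against Ov4Carbo, -3.29 for Ov4Cis against Ov4Carbo7 and 1.63 for Ov4Cis against Ov4Carbo4 (log2, limma). The last of these missed the threshold with the title series term, at 1.08 (adjusted p = 0.349), and was 0.75 on log2(RPKM + 1).

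ALDH1A2 differed by -2.22 for Ov4Carbo4 against Ov4Carbo, 1.11 for Ov4Carbo7 against Ov4Carbo, 3.33 for Ov4Carbo7 against Ov4Carbo4 and 2.98 for Ov4Cis against Ov4Carbo4. On log2(RPKM + 1) these ALDH1A2 values were -0.29, 0.35, 0.65 and 0.52, all inside the fold limit. ALDH1A3 differed by 3.53 for Ov4Carbo7 against Ov4Carbo, 4.78 for Ov4Carbo7 against Ov4Carbo4, 1.89 for Ov4Cis against Ov4Carbo, 3.14 for Ov4Cis against Ov4Carbo4 and -1.64 for Ov4Cis against Ov4Carbo7. The ALDH1A3 value for Ov4Cis against Ov4Carbo7 was -0.08 with the title series term, and the call was also lost without Ov4Cis replicate 1 or 2 or without Ov4Carbo7 replicate 1 or 3 (adjusted p from 0.0528 to 0.0985). The ALDH1A3 value for Ov4Cis against Ov4Carbo missed the threshold without Ov4Cis replicate 3 or without Ov4Carbo replicate 2 or 3 (adjusted p from 0.05 to 0.0651). On log2(RPKM + 1) the ALDH1A3 values for Ov4Cis against Ov4Carbo and Ov4Carbo4 were 0.61 and 0.80, inside the fold limit.

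ALDH2 differed by -1.77 for Ov4Carbo4 against Ov4Carbo, -1.03 for Ov4Carbo7 against Ov4Carbo and 1.53 for Ov4Cis against Ov4Carbo4. ALDH3B1 differed by -1.74 for Ov4Carbo4 against Ov4Carbo, 1.40 for Ov4Carbo7 against Ov4Carbo4 and 1.42 for Ov4Cis against Ov4Carbo4. With the title series term the first and last of the ALDH3B1 values were -1.28 (adjusted p = 0.0609) and 0.73 (adjusted p = 0.372).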

How the results depend on the processing

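The calls of ALDH1A1 in Ov4Carbo and Ov4Carbo7 against the parental line held under every alternative run. The counts that follow are mainly those that moved most in proportion. Smaller shifts, also under a variance trend, quantile normalization and fits of only the lines compared, are not all listed. With a filter on a mean of at least log2 RPKM 1, which removes ALDH1A2 and ALDH1A3, the members called went to 1 in Ov4Carbo4, 1 in Ov4Carbo7 (both against parental), 1 for Ov4Carbo7 against Ov4Carbo, 2 for Ov4Carbo7 against Ov4Carbo4, and 1, 3 and 1 for Ov4Cis against Ov4Carbo, Ov4Carbo4 and Ov4Carbo7. On log2(RPKM + 1) they were 0 in Ov4Carbo4 and 1 in Ov4Carbo7 against parental, 1 for Ov4Carbo7 against Ov4Carbo, and 1 and 2 for Ov4Cis against Ov4Carbo and Ov4Carbo4. With a term for the title series they were 1 for Ov4Carbo7 against Ov4Carbo, and 3 and 1 for Ov4Cis against Ov4Carbo4 and Ov4Carbo7. At an adjusted p under 0.01 they were 1 for Ov4Carbo7 against parental and 1 each for Ov4Cis against Ov4Carbo and Ov4Carbo7. Smaller drops at that limit were to 3 in Ov4Carbo and 2 in Ov4Carbo4 against parental, 2 for Ov4Carbo7 against Ov4Carbo and 4 for Ov4Cis against Ov4Carbo4. With no fold limit they were 4 for Ov4Carbo7 against parental, 7 for Ov4Carbo7 against Ov4Carbo and 5 for Ov4Cis against Ov4Carbo7, where 42.6%, 36.6% and 39.2% of all genes passed. The shares of all genes called in the comparisons given here lay between 6.98% and 13.7% with the filter, 4.96% and 7.79% on log2(RPKM + 1), 9.4% and 21.1% with the title series term, and 10.2% and 14.9% at an adjusted p under 0.01.

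Leaving out 1 replicate at a time, the count ranged from 2 to 3 in Ov4Cis, 3 to 4 in Ov4Carbo, 2 to 4 in Ov4Carbo4 and 1 to 2 in Ov4Carbo7 against parental. The shares of all genes called there were 15% to 16.5%, 11.2% to 15.2%, 13.8% to 15.6% and 16% to 17.6%. The count ranged from 4 to 5 for Ov4Carbo4 against Ov4Carbo (12.7% to 16.2% of all genes) and 1 to 4 for Ov4Carbo7 against Ov4Carbo (11.7% to 16.7%). It ranged from 1 to 3 for Ov4Cis against Ov4Carbo (12.4% to 16.7%) and 1 to 2 for Ov4Cis against Ov4Carbo7 (13.4% to 15.2%). It stayed at 4 for Ov4Carbo7 against Ov4Carbo4 (19.9% to 21.4%) and 5 for Ov4Cis against Ov4Carbo4 (15.9% to 17.3%). The F-test passed 7 to 9 members, where 71.3% to 82.5% of all genes passed.

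With the title series term 13 differences changed sign, none of them called before. Against parental these were ALDH1A1 in Ov4Carbo4 (0.085), ALDH3A2 in Ov4Carbo4 (-0.035), ALDH7A1 in Ov4Carbo7 (0.50) and ALDH9A1 in Ov4Carbo4 (-0.335) and Ov4Carbo7 (-0.13). Against Ov4Carbo they were ALDH3B1 in Ov4Carbo7 (0.12), ALDH9A1 in Ov4Carbo4 (-0.031) and ALDH7A1 in Ov4Cis (-0.20). For Ov4Cis against Ov4Carbo4 they were ALDH1B1 (0.033) and ALDH7A1 (-0.90), and against Ov4Carbo7 ALDH3A2 (0.033), ALDH3B1 (-0.67) and ALDH7A1 (-0.16). For Ov4Cis against Ov4Carbo, the term gives the same fit as leaving out Ov4Carbo replicate 1. Leaving out a replicate also turned uncalled differences. Against parental, ALDH1A1 in Ov4Carbo4 ranged from -1.11 to 0.043, ALDH1A2 in Ov4Cis from -0.015 to 0.57, ALDH1A3 in Ov4Cis from -0.30 to 0.23 and ALDH7A1 in Ov4Carbo from -0.068 to 0.55. Against Ov4Carbo, ALDH3B1 ranged from -0.60 to 0.14 in Ov4Carbo7 and from -0.57 to 0.17 in Ov4Cis, and ALDH7A1 from -0.29 to 0.32 in Ov4Carbo4 and from -0.20 to 0.41 in Ov4Cis. For Ov4Cis, ALDH3A2 ranged from -0.032 to 0.17 and ALDH7A1 from -0.0049 to 0.15 against Ov4Carbo4, and ALDH3B1 from -0.16 to 0.14 against Ov4Carbo7.

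The replicate block turned 1 of 90 member differences into a call, ALDH1A3 in Ov4Carbo4 against Ov4Carbo (-1.25, adjusted p = 0.0337). This raised that count from 4 to 5, where 13.8% of all genes were called. The block left the other 9 counts of calls as they were, and 7 members in place of 9 passed the F-test, where 73.4% of all genes did. Median centring changed no call. The cause of these shifts was not tested. No F-test was made with only 2 lines, since it needs them all. Depth is unknown, so the precision of values at low levels cannot be stated. The line means of ALDH1A2 lie under 1 RPKM in every line and those of ALDH1A3 in every line but Ov4Carbo7. Those of ALDH1A1 do so in the parental line and in Ov4Carbo4.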
